A study of Mus musculus with 8 samples.

Results

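The tubulin and actin cytoskeleton genes of the mouse brain were read on 2-colour cDNA arrays in mice that lack the RNA-editing enzyme ADAR2. The genes were chosen by symbol: alpha and beta tubulins, gamma tubulin and its ring complex, tubulin folding cofactors, the main neuronal microtubule-associated proteins, plus-end proteins, stathmins, collapsin response mediator proteins, actins with their monomer-binding and severing proteins, Arp2/3 and actin-related proteins, capping protein, neurofilaments and internexin. They came to 61 of the 8653 named genes, on 95 of the 12131 named probes. Of the 61 genes, 37 had 1 probe and 24 had several, 58 probes in all.

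Brain RNA came from 4 male mutant mice, 19 weeks old, of the genotype ADAR-/-/GluR-B R/R, and was set against 1 pool of brain RNA from wildtype males aged 19 weeks. In the mutants the GluR-B allele encodes the edited receptor subunit directly, and since the wildtype pool does not carry it, the effects of that allele and of the loss of ADAR2 cannot be told apart. Per the design the pool held 4 mice, but another number stands in the labelling protocol. Every mutant mouse was hybridised to 2 arrays of exchanged dyes, so 4 arrays had the mutant in Cy5 and 4 had it in Cy3. The mouse was the replicate (n = 4). The pool was 1 control sample, so the spread among wildtype mice was not measured, and the number of arrays limits the precision. The labels name no brain region. Ratios hold no levels, so the tissue could not be checked against the abundance of its markers, and in whole tissue fewer cells of a type and less RNA per cell cannot be told apart.

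Microtubules are hollow polymers of alpha and beta tubulin that run along axons and dendrites and carry transport. Gamma tubulin nucleates them, folding cofactors assemble the tubulin dimer, and associated proteins stabilise, tip or depolymerise the polymer. Actin filaments fill growth cones and dendritic spines. Profilin and thymosins bind actin monomers, cofilin severs filaments, the Arp2/3 complex branches them and capping protein closes their ends. Neurofilaments set the calibre of large axons.

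The values are log2 ratios of the 2 channels with each array's median subtracted, so a value of 1 is a 2-fold ratio above the median spot. No source used here names the numerator of the ratio, so no sign below states that a gene was higher or lower in mutants. Both readings of the sign were therefore computed. The mean ratio, the mean of a mouse's 2 arrays, measures mutant and pool if every array was turned to run the same way before deposit. The swap component, the array with the mutant in Cy5 minus the array with the mutant in Cy3, divided by 2, measures mutant over pool if every ratio is Cy5 over Cy3. By construction, a difference between genotypes cancels in the swap component under the first reading and in the mean ratio under the second. Across all spots, Pearson's r between arrays was 0.224 to 0.401 among the 6 pairs with the mutant in Cy5, 0.425 to 0.677 among the 6 pairs with the mutant in Cy3, and 0.154 to 0.413 among the 16 pairs of opposite dye. The spread of the 4-array mean over spots was 0.594 (SD) with the mutant in Cy5 and 0.928 with the mutant in Cy3.

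The targeted gene, Adarb1, which encodes ADAR2, was read by 3 probes whose place in the transcript relative to the deleted part was not looked up, so they do not test the labels. The gene had a mean ratio of 0.36 (limma adjusted p = 0.158) and a swap component of -0.89 (limma adjusted p = 0.0271). Its probes had swap components of -1.33, -1.23 and -0.10, so the value rested on the first 2 of the 3. The mean ratio was -0.53 with the mutant in Cy5 alone and 1.24 with the mutant in Cy3 alone, where it passed (limma adjusted p = 0.0129). The swap component was between -0.95 and -0.74 with arrays scaled, with the loess trend removed and without any 1 mouse, but did not pass there (limma adjusted p = 0.0808 to 0.165). With names at the same spot number it was -0.0056.

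In the mean ratio, the cytoskeleton genes lay mostly above the array median. Of the 61 genes, 31 passed the test with a positive mean ratio, 2 with a negative one, and 28 did not pass (limma, Benjamini-Hochberg adjusted p under 0.05 over all 8604 genes tested). The background was high: 28.8% of all genes passed, 17.4% with a positive and 11.4% with a negative value. The median of the 61 genes was 0.50, against -0.03 for all genes. By mouse the members' median was 0.66, 0.53, 0.53 and 0.40 in mice 1 to 4, while that of all genes was between 0.004 and 0.05.

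The constant on each array was not known, and it moved the balance of signs. With the values as deposited, 39.4% of the 2478 genes called in the mean ratio were positive, against 60.4% of the 2481 called with medians subtracted. On that scale the median of all genes was -0.18 and that of the members 0.33. Called members were then 26 positive and 4 negative, against 11.3% and 17.5% of all genes, and no called member changed sign.

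In the swap component the cytoskeleton genes lay mostly below 0. Of the 59 genes with a value in every mouse, 24 passed the test with a negative swap component, none passed with a positive one (1 did at an unadjusted p under 0.05, Dpysl5), and 35 did not pass (limma). Among all 8107 genes tested, 9.31% passed, 7.94% with a negative and 1.37% with a positive value. The median was -0.32 for the members and -0.08 for all genes. Negative calls dominated the whole array too, since 14.7% of the called genes were positive, and 30.4% of the 286 called as deposited. As deposited, 10 members were called negative and none positive, where 3.53% of all genes were called, 2.45% with a negative value. None of the 24 calls was left when any 1 mouse was left out or when arrays were scaled to one spread. The same held when a loess trend on the mean ratio was removed. In these settings 0 genes were called on the whole array, so the calls cannot show whether members lost more than other genes. At an unadjusted p under 0.05 (limma), 32 of 59 members and 2516 of 8107 genes passed before these changes. Of the members, 28 to 32 passed without 1 mouse, 26 with arrays scaled and 6 with the trend removed. Among all genes the counts were 1842 of 8183 to 2371 of 8209 without 1 mouse. They were 1775 of 8107 with arrays scaled and 1359 of 8107 with the trend removed, where the members did not exceed the background. With the trend removed the members' median was -0.11, against -0.04 for all genes.

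Both quantities come from the same 8 arrays, so a call in one is no independent evidence for the other. Of the members, 22 were called in both, each with a positive mean ratio and a negative swap component. The share of all genes with this pairing was not counted, so it cannot be called a trait of the members. A higher value with the mutant in Cy3 raises the mean ratio and lowers the swap component together. Another 11 were called in the mean ratio only and 2, Clip1 and Capzb, in the swap component only. The remaining 26 were called in neither. On the arrays themselves, 20 of the 59 members with 8 values were above 0 on all 8 arrays, which 12.7% of all genes were, and 2 were below 0 on all 8, which 7.76% of all genes were. In 32 members every array with the mutant in Cy3 lay above every array with the mutant in Cy5, a pattern that 17.4% of all genes had. All 24 members called in the swap component were among these 32, but call and pattern rest on the same arrays, so this is no separate support. With the 4 arrays that carried the mutant in Cy5 alone, no gene was called in the mean ratio, although 19 members and 2026 genes had an unadjusted p under 0.05 (limma). With the 4 arrays that carried it in Cy3 (the Cy3 orientation), 35 members were called positive and 2 negative, 61.7% of the 60 tested, against 32.3% of all genes.

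**Figure D1:**
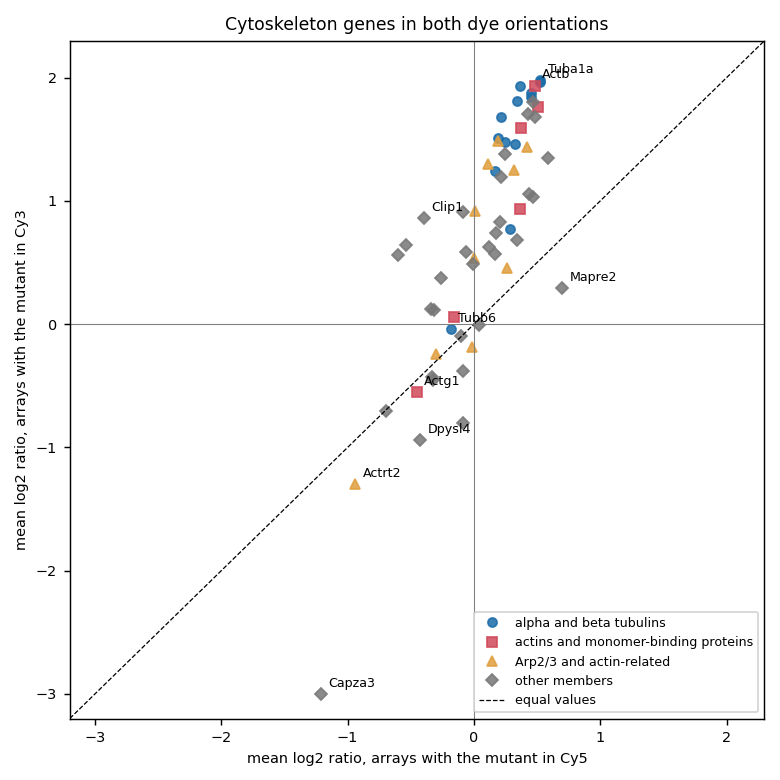
Mean log2 ratio of each cytoskeleton gene over the arrays with the mutant in Cy5 (horizontal axis) and over the arrays with the mutant in Cy3 (vertical axis), array medians subtracted, with 1 point per gene. Actb and the tubulins other than Tubb6 lie in the upper right and above the dashed line of equal values, such as Tuba1a at 0.53 and 1.98. Tubb6 (-0.18 and -0.04), Actrt2 and Capza3 lie below 0 on both axes.

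The plot of both dye orientations sets the 2 quantities side by side: a gene's mean ratio grows along the diagonal, and points above the diagonal have a negative swap component. Clip1, at -0.40 and 0.86, is a gene whose sign differed between the orientations, and Mapre2, at 0.70 and 0.29, lay below the diagonal.

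Alpha and beta tubulins, which form the microtubule wall, were called nearly throughout. Of 13 tubulins, 12 had a called positive mean ratio and none a negative one, with a group median of 0.95, and 11 had a called negative swap component, with a group median of -0.70. Among all genes the shares were 17.4% called positive in the mean ratio and 7.94% called negative in the swap component. Tuba1a, the main alpha tubulin of developing neurons, read 0.40, 0.46, 0.67 and 0.57 in mice 1 to 4 with the mutant in Cy5, and 1.82, 1.88, 2.15 and 2.08 with the mutant in Cy3. All 8 arrays were above 0, and the 2 orientations did not overlap. Its mean ratio was 1.25 ± 0.12 (moderated SE, n = 4 mice, limma adjusted p = 0.00754) and its swap component -0.73 ± 0.10 (limma adjusted p = 0.0271). Tubb2a, a beta tubulin abundant in neurons, read 0.47, 0.31, 0.58 and 0.44 with the mutant in Cy5 and 1.87, 1.73, 2.02 and 1.88 with the mutant in Cy3. Here too the orientations stood apart with little spread within each.

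The 250 bases before the start of an alpha and a beta tubulin are shown, from RefSeq on GRCm38.p6. Whether they bear on the ratios was not tested. Tuba1a lies at chr15:98953502-98953751 and Tubb2a at chr13:34078009-34078258, both on the minus strand. Capitals mark 4 motifs searched on both strands: the TATA box letters TATAA, the CAAT box letters CCAAT, the GC box letters GGGCGG (printed as CCGCCC where they lie on the other strand) and the cyclic AMP response element letters TGACGTCA. No match overlapped another.
Tuba1a: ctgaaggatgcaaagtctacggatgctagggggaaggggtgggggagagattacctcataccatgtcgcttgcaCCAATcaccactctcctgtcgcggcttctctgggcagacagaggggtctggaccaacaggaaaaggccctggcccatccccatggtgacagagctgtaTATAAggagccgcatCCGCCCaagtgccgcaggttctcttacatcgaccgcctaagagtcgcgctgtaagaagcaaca
Tubb2a: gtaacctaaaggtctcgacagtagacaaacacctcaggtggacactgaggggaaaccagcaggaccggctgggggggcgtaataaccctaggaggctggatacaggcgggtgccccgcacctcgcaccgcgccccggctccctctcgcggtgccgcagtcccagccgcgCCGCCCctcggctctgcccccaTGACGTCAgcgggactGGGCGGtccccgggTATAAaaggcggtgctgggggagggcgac
Both windows held TATAA, with its first base 78 bases before the start in Tuba1a and 29 in Tubb2a, and both held GGGCGG. Only the Tuba1a window held CCAAT, and only that of Tubb2a held TGACGTCA. These are letter matches, not sites of binding. Of the 61 members, 41 had a promoter in the RefSeq table. TATAA was present in 22.0% of those 41 and in 16.1% of 7009 named genes, CCAAT in 39.0% and 40.9%, GGGCGG in 61.0% and 60.9%, and TGACGTCA in 4.88% and 2.71%. Of the 11 tubulins with a promoter, 3 held the TATA box letters, 6 those of the CAAT box, 6 those of the GC box and 1 those of the cyclic AMP response element.

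Among the other alpha tubulins, Tuba1b had mean ratios of 1.18, 1.02, 1.54 and 1.24 in mice 1 to 4 and swap components of -0.65, -0.76, -0.90 and -0.59. Tuba1c had mean ratios of 1.14, 1.06, 1.24 and 1.16 and swap components of -0.76, -0.78, -0.76 and -0.83, the most negative mean of any member at -0.78. Tuba4a had a mean ratio of 0.95 and swap components of -0.61, -0.91, -0.59 and -0.83. In none of these genes did a mouse differ in sign. Tuba8 and Tuba3b had mean ratios of 0.90 and 0.85 and swap components of -0.57 and -0.66, both called.

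Among the other beta tubulins, Tubb4a, an isotype of neurons and oligodendrocytes, had mean ratios of 1.12, 1.14, 1.17 and 1.16 in mice 1 to 4 and swap components of -0.67, -0.90, -0.54 and -0.67. Tubb2b, an isotype of neurons, had a mean ratio of 1.08 and swap components of -0.77, -0.77, -0.58 and -0.83. Tubb5 averaged 0.87 in the mean ratio and -0.61 in the swap component, and Tubb3, the neuron-specific isotype, 0.70 and -0.54. All of these passed in both quantities, though the mean ratio of Tubb3 did not pass without mouse 1, 2 or 3. Tubb4b passed in the mean ratio at 0.53 (limma adjusted p = 0.0403), but not in the swap component at -0.24. Its mean ratio lost the call as deposited, with arrays scaled and without any 1 of the mice. Tubb6, the tubulin missing from both sets of calls, read 2.44 on the array of mouse 1 with the mutant in Cy3 and -0.82, -1.54 and -0.23 on those of the other mice, and its mean ratio was -0.11 ± 0.34. Tubulin coding sequences resemble one another closely, so a cDNA probe may read several of these transcripts. How far the 13 values are separate measurements was not tested.

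**Figure D2:**
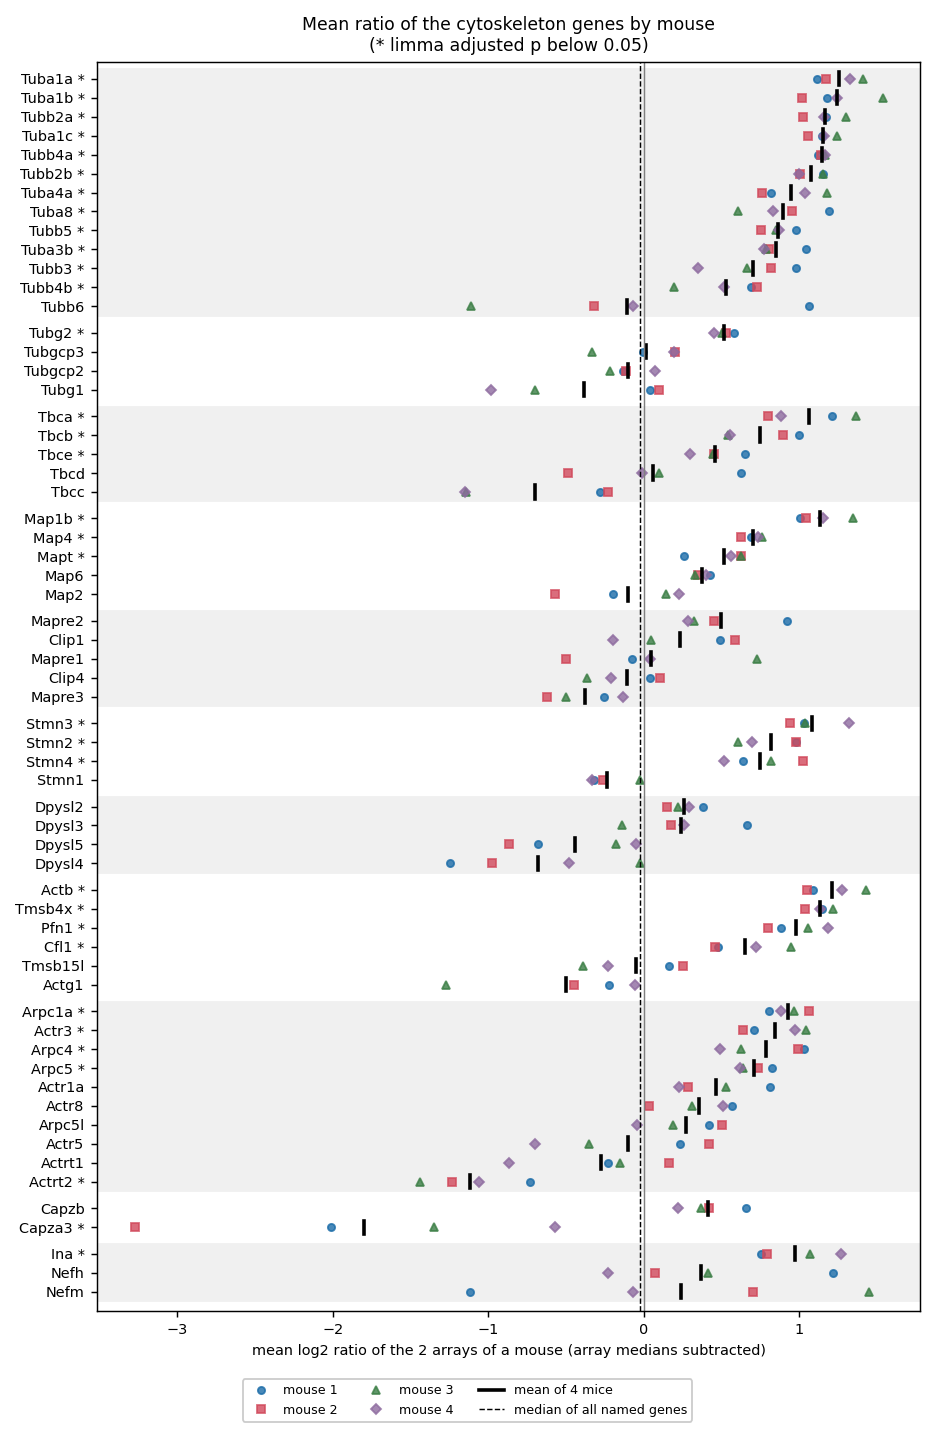
Mean log2 ratio of a mouse's 2 arrays for each of the 61 cytoskeleton genes, with 1 symbol per mouse, a bar for the mean of 4 mice and shading by gene group. The 12 starred tubulins at the top lie above 0 in every mouse, Tubb6 does not, and the only genes called below 0 are Actrt2 at -1.12 and Capza3 at -1.80.

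The plot by mouse shows how far the mice differed within a gene: Tubb4a spanned 1.12 to 1.17, whereas Tubb6 spanned -1.11 to 1.06.

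Gamma tubulin and the proteins of its ring complex, which nucleate microtubules, had a share of calls near the background. In the mean ratio 1 of the 4 passed, where 28.8% of all genes did, and in the swap component none did, where 9.31% of all genes did. None of the 4 swap components had an unadjusted p under 0.05 either (limma), which 2516 of all 8107 genes had. The group medians were -0.04 and -0.07. Tubg2 had mean ratios of 0.58, 0.53, 0.51 and 0.45, an even if small value of 0.52 (limma adjusted p = 0.0232). The call was lost as deposited, with runs of 48 spots centred and without any 1 mouse. Tubgcp3 was at 0.01, Tubgcp2 at -0.10 and Tubg1 at -0.39, and none of these passed.

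Folding cofactors, chaperones that join alpha and beta tubulin into a dimer, divided by member. Tbca, which holds beta tubulin, read 0.32, 0.48, 0.66 and 0.23 with the mutant in Cy5 and 2.09, 1.12, 2.06 and 1.54 with the mutant in Cy3. The orientations did not overlap, and it passed both tests, with a mean ratio of 1.06 and a swap component of -0.64. Tbcb and Tbce, which act on alpha tubulin, passed in the mean ratio at 0.75 and 0.46. Tbcb lost its call without mouse 2 and with runs of 48 spots centred, and Tbce as deposited, with arrays scaled and without any 1 mouse. Tbcd, at 0.06, ranged from -1.65 to 1.28 among the arrays with the mutant in Cy5. Tbcc, which acts at the last step, was below 0 on all 8 arrays, with a mean ratio of -0.70 that did not pass (limma adjusted p = 0.059). It passed at -0.86 as deposited and at -0.70 with all 8 arrays and the mouse as a random block, where 39.5% of all genes were called.

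Of 5 structural microtubule-associated proteins, 3 had called positive mean ratios, as 17.4% of all genes had. Map1b, an early axonal stabiliser, read 0.33, 0.19, 0.75 and 0.62 with the mutant in Cy5 and 1.69, 1.89, 1.94 and 1.68 with the mutant in Cy3. It gave a mean ratio of 1.14 and a swap component of -0.66, both called. Map4, the broadly expressed member, passed in the mean ratio at 0.70, and its swap component of -0.49 missed (limma adjusted p = 0.052), passing at the same value once whole-number ratios were removed (limma adjusted p = 0.0337). Mapt, which encodes tau, passed in the mean ratio at 0.52 (limma adjusted p = 0.0327). That call was lost as deposited, with arrays scaled, with runs of 48 spots centred and without mouse 2, 3 or 4. Map6, a protein of cold-stable microtubules, had a mean ratio of 0.37, and Map2, the dendritic member, -0.10, and neither passed. Map6 did pass with the mouse as a random block (limma adjusted p = 0.0432), where 39.5% of all genes were called. It also passed among probes with values on all 8 arrays and in the Cy3 orientation alone.

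Plus-end proteins, which ride on growing microtubule ends, had no called mean ratio: 0 of 5 passed (limma), with a group median of 0.05. At an unadjusted p under 0.05 (limma), 2 passed, Mapre2 and Mapre3. Of all 8604 genes, 28.8% passed and 3760 had an unadjusted p under 0.05, so 0 of 5 says little about the group. With the mouse as a random block, where 39.5% of all genes were called, Mapre2 passed (0.50, limma adjusted p = 0.0183). Mapre2 also passed among probes with values on all 8 arrays, and as deposited Mapre3 passed (-0.54, limma adjusted p = 0.0421). Clip1 read -0.05, -0.07, -0.77 and -0.70 with the mutant in Cy5 and 1.03, 1.24, 0.86 and 0.30 with the mutant in Cy3. Its sign therefore changed with the dye in every mouse, with a swap component of -0.63 ± 0.11 (limma adjusted p = 0.0289) and a mean ratio of 0.23 that did not pass. In the Cy3 orientation alone Clip1 passed at 0.86. Mapre2 had the highest mean ratio of the group at 0.50 and was above 0 on 7 of 8 arrays. Mapre1 was at 0.05, Clip4 at -0.11 and Mapre3 at -0.38. The 3 probes of Mapre1 ran from -0.45 to 0.61, with 1 called positive. Those of Mapre3 were at -0.74 and -0.02, with 1 called negative.

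Stathmins, which bind tubulin dimers and promote disassembly, differed by member. The neuronal members Stmn3, Stmn2 and Stmn4 passed in the mean ratio at 1.08, 0.82 and 0.75, where 17.4% of all genes passed with a positive value. Stmn3 read 0.46, 0.30, 0.55 and 0.62 with the mutant in Cy5 and 1.60, 1.59, 1.53 and 2.02 with the mutant in Cy3. Stmn3 and Stmn2 also passed in the swap component, at -0.60 and -0.57, while Stmn4 did not at -0.31. Stmn1, the general member, had a mean ratio of -0.23 and a swap component of 0.15, neither called. Without mouse 2, Stmn3 was the 1 stathmin still called in the mean ratio, and without mouse 3 Stmn4 was not called.

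Collapsin response mediator proteins, cytosolic proteins of axon guidance that bind tubulin, had no called gene in either quantity (limma). Of all genes 28.8% were called in the mean ratio and 9.31% in the swap component, so none of 4 says little. At an unadjusted p under 0.05 (limma), 1 of 4 passed in the mean ratio and 2 of 4 in the swap component. Among all genes 3760 of 8604 and 2516 of 8107 did. The mean ratios of the group were 0.26 for Dpysl2, 0.24 for Dpysl3, -0.44 for Dpysl5 and -0.68 for Dpysl4, with a median of -0.10. The value of Dpysl2 averaged probes at 1.22 and -0.70, called in opposite directions. The first probe also had a called swap component, -0.71 (limma adjusted p = 0.0396). Dpysl4 was below 0 on 7 of 8 arrays, and its mean ratio had a limma adjusted p of 0.0702. With the mouse as a random block it was 0.0287, in a fit that called 39.5% of all genes. Dpysl5 passed in the Cy3 orientation alone (-0.80, limma adjusted p = 0.0438).

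Actins and the proteins that bind actin monomers or sever filaments lay mostly above the median in the mean ratio. Of 6 genes, 4 had called positive mean ratios, with a group median of 0.82, and 3 had called negative swap components, with a group median of -0.45. The shares of all genes were 17.4% and 7.94%. Actb, cytoplasmic beta actin, read 0.30, 0.32, 0.75 and 0.57 with the mutant in Cy5 and 1.88, 1.77, 2.11 and 1.98 with the mutant in Cy3. Its mean ratio was 1.21 ± 0.13 and its swap component -0.73 ± 0.10, with mouse values of -0.79, -0.72, -0.68 and -0.71. Tmsb4x, the thymosin that sequesters actin monomers, had a mean ratio of 1.13 and a swap component of -0.63. Pfn1, profilin, had 0.98 and -0.61, also called in both. Cfl1, cofilin, passed in the mean ratio only, at 0.65, and lost that call as deposited, with runs centred and without mouse 2, 3 or 4. Tmsb15l was at -0.05. Actg1, cytoplasmic gamma actin, had a mean ratio of -0.50 that did not pass, an average over probes that opposed each other.

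**Figure D3:**
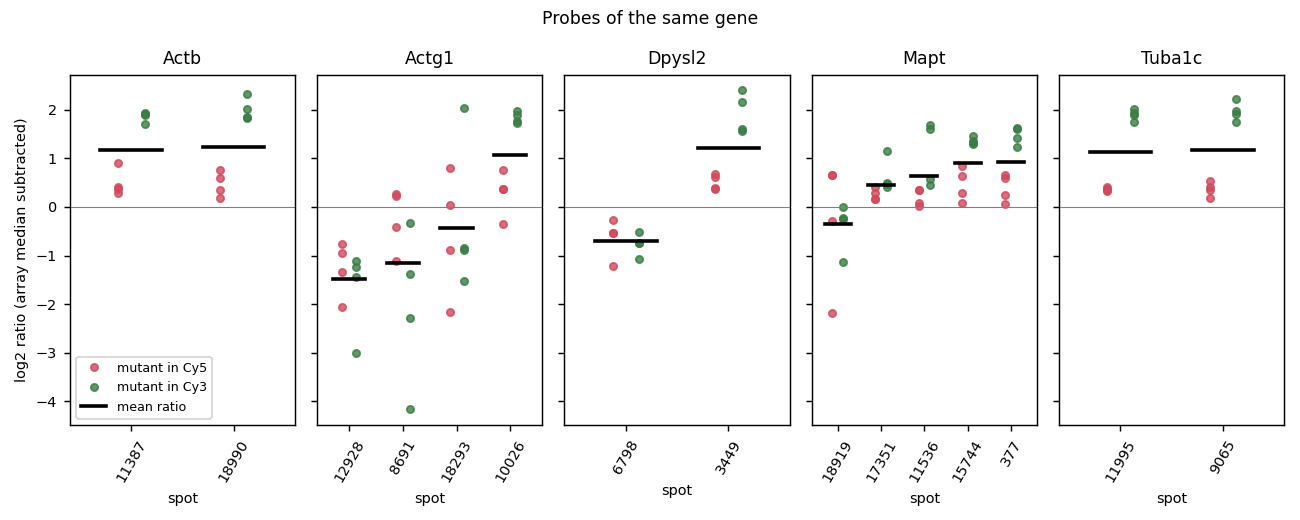
Log2 ratio on each array for every probe of Actb, Actg1, Dpysl2, Mapt and Tuba1c (array medians subtracted), with arrays that carry the mutant in Cy5 left of those with the mutant in Cy3 and a bar at the mean ratio of each probe. The probes of Actb and of Tuba1c match, while those of Actg1 run from -1.49 to 1.06.

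Where a gene had several probes, these did not always give the same answer. In 8 of the 24 genes the probe means lay within 0.2 of each other, as with Tuba1c at 1.13 and 1.17, Actb at 1.18 and 1.24 and Map1b at 1.11 and 1.16. In 5 genes they were over 1 apart. The 4 probes of Actg1 had mean ratios of -1.49, -1.15, -0.43 and 1.06, of which the first 2 were called negative and the last positive. Dpysl2 was the other gene called in both directions, with probes at 1.22 and -0.70. The 5 probes of Mapt ran from -0.35 to 0.93, and 3 were called positive. Mapre2 had 2 probes of opposite swap component, 0.92 (limma adjusted p = 0.0394) and -0.52 (limma adjusted p = 0.0811), and the first was the only member probe with a called positive swap component. By probe, 46 of 95 had a called positive mean ratio and 6 a called negative one, against 17.0% and 13.3% of all probes. In the swap component 30 of 92 probes were called negative and 1 positive, against 6.43% and 1.41% of all probes (7.84% in either direction). Whether a disagreement lies in the probe, its annotation or the transcript was not tested.

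Arp2/3 subunits, which branch actin filaments, all had positive mean ratios, and 4 of 5 were called in both quantities. Of all genes, 17.4% were called positive in the mean ratio and 7.94% negative in the swap component, and the share called in both was not counted. Arpc1a, Arpc4 and Arpc5 had called mean ratios of 0.93, 0.79 and 0.71 and called swap components of -0.51, -0.47 and -0.60. Actr3, the Arp3 subunit, read 0.10, -0.04, 0.32 and 0.39 with the mutant in Cy5 and 1.32, 1.31, 1.77 and 1.55 with the mutant in Cy3. It passed in both, at 0.84 and -0.65. Without mouse 2, the mean ratios of Arpc4 and Arpc5 no longer passed, and with runs of 48 spots centred that of Arpc4 did not (0.58, limma adjusted p = 0.0968). Arpc5l, an isoform of Arpc5, was at 0.27 and did not pass, and its 4 probes ran from -0.29 to 0.76. Of the actin-related proteins outside the complex, Actr1a, the filament of dynactin, was at 0.46, Actr8 and Actr5, of chromatin remodellers, at 0.36 and -0.10, and Actrt1 at -0.27, with no call. Actr1a passed with runs centred (0.62) and in the Cy3 orientation alone (0.92). Actrt2, an actin-related protein known from testis, was below 0 on all 8 arrays, with mouse means of -0.73, -1.24, -1.44 and -1.06. Its mean ratio of -1.12 passed (limma adjusted p = 0.00818) and its swap component of 0.18 did not.

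Capping protein closes the fast-growing end of the actin filament. Capzb, its beta subunit, read 0.09, -0.16, 0.03 and -0.30 with the mutant in Cy5 and 1.23, 0.99, 0.70 and 0.73 with the mutant in Cy3. The orientations did not overlap: the swap component was -0.50 (limma adjusted p = 0.0413), whereas the mean ratio of 0.42 did not pass (limma adjusted p = 0.0617), although it did with runs centred (0.52) and in the Cy3 orientation alone (0.91). Capza3, the alpha subunit of the male germ line, had 7 values, all below 0. They were -0.38, -2.78, -1.11 and -0.57 with the mutant in Cy5, and -3.65, -3.76 and -1.59 in mice 1 to 3 with the mutant in Cy3. Its mean ratio of -1.80 ± 0.43 (limma adjusted p = 0.0283) used the single array of mouse 4, and the call was lost with arrays scaled, with runs of 48 spots centred and without mouse 1, 2 or 3.

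Of the neuronal intermediate filaments, Ina, which encodes internexin, passed in the mean ratio at 0.97 (limma adjusted p = 0.00892) with mouse values of 0.75, 0.79, 1.07 and 1.27. Its swap component of -0.38 did not pass. The neurofilament subunits were scattered between mice. Nefh had mouse means of 1.22, 0.07, 0.41 and -0.23, and Nefm -1.12, 0.70, 1.45 and -0.07, of which that of mouse 3 was a single array. Their mean ratios of 0.37 and 0.24 did not pass.

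**Figure D4:**
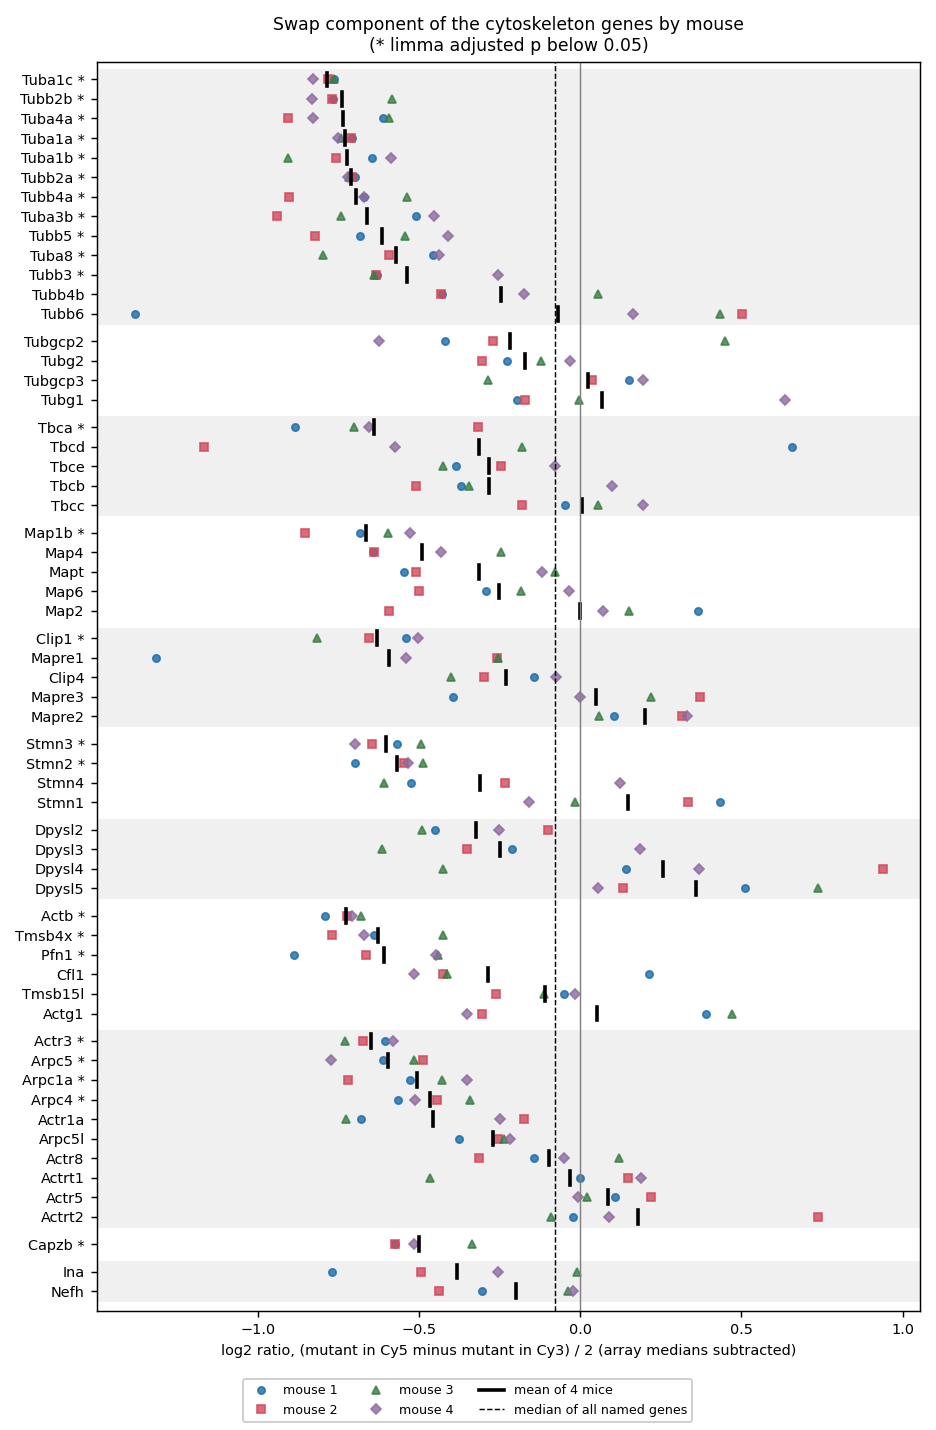
Swap component (log2 ratio, mutant in Cy5 minus mutant in Cy3, divided by 2) of the 59 cytoskeleton genes with a value in every mouse, with 1 symbol per mouse, a bar for the mean of 4 mice and shading by gene group. The 24 starred genes lie between -0.78 and -0.47, and 11 tubulins are among them.

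The plot of swap components shows that most called genes share a narrow range of values, while genes above 0, such as Dpysl5 at 0.36 and Dpysl4 at 0.26, were not called.

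Cytoskeletal genes outside the 61 had calls of both signs in the mean ratio. Of 25 measured microtubule regulators and tubulin-modifying enzymes, 8 were called positive and 5 negative, with a median of 0.05, so 52.0% were called. The positive ones included Pafah1b1, the dynein regulator LIS1, at 1.04, and Tppp, a polymerisation-promoting protein of oligodendrocytes, at 0.99. The negative ones included Fign, a severing enzyme, at -1.46, and Ttll3, a tubulin glycylase, at -1.30. Of 41 actin regulators, 10 were called positive and 1 negative, with a median of 0.30. The share called, 26.8%, was near the 28.8% of all genes. Cyfip2, of the WAVE complex, was at 1.08 and Basp1, a growth cone protein, at 0.95, while Vil1, the microvillar bundler, was at -0.56. Of 19 genes of the spectrin skeleton and other filaments, 3 were called positive and 2 negative, with a median of 0.11, and the share of 26.3% was again near that of all genes. Add1, adducin, was at 0.98 and Epb41l3, a membrane skeleton linker, at 0.87, whereas Krt8, an epithelial keratin, was at -0.95 and Lmna, lamin A, at -0.73. In the swap component these lists had 6, 7 and 1 negative calls and 0, 1 and 1 positive calls. The shares called were 24.0%, 19.5% and 10.5%, against 9.31% of all genes, so the third was near the background.

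Marker lists of cell types differed in sign. In the mean ratio, 7 of 9 neuronal markers were called positive and 1 negative, with a median of 0.94, which is near that of the tubulins. Astrocyte markers had 4 positive calls of 7 and a median of 0.57, and oligodendrocyte markers 3 of 5 and a median of 0.60. Of 4 blood markers 3 were called negative and 1 positive, with a median of -0.93. Microglial markers had 1 positive and 2 negative calls of 5, endothelial markers 1 of each among 3, and choroid plexus markers 1 positive call of 3, with medians of -0.02, 0.24 and 0.11. For comparison, 17.4% of all genes were called positive and 11.4% negative, and several of these lists hold few genes. Swap components were called negative in 4 of 9 neuronal, 1 of 7 astrocyte, 3 of 5 oligodendrocyte and 1 of 4 blood markers. The share of all genes called negative there was 7.94%. The part of these cell types and of the dyes in the values of the cytoskeleton genes was not tested.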

How the data were processed

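Per the labels' protocols, total RNA of each brain was turned into cDNA, coupled to one of the dyes and mixed with the pool in the other dye. The deposited values are log2 ratios with an additive constant per array. Scale and constants were read off the many values that equal whole-number ratios. Centring rule and direction stay unknown, and no source used here names the scanner, the image software or the normalisation. Deposited medians were -0.147, -0.034, -0.0045 and -0.033 in mice 1 to 4 with the mutant in Cy5, and -0.571, -0.283, -0.134 and -0.085 with the mutant in Cy3. Each array held 20211 to 20559 values of 20794 spots. Ratios coded as 100000 and empty cells were missing.

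Names came from the platform annotation at a shift of 11 spots, up to annotation spot 20000, updated through the RefSeq gene table (GRCm38.p6), in which all 12771 annotated spots were found. The shift was chosen because probes of one gene then resembled each other (Spearman's rho 0.261 across genes, 0.082 at the next of 201 shifts, -0.012 with none). The annotation beyond it, which holds further copies of Stmn2, Mapre1, Map4, Capza1 and Tmsb4x, was not used.

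Array medians were subtracted, a mouse's arrays averaged (mean ratio) or subtracted and divided by 2 (swap component), and the probes of a gene averaged. An intercept-only fit (lmFit, then eBayes) in limma 3.58.1 under R 4.3.3 compared the 4 mice with 0, with Benjamini-Hochberg adjustment over all named genes and a threshold of 0.05. Standard errors are moderated. The code was tested on simulated data. All lists given in the text were compiled from general knowledge, and the members and lists were chosen with earlier results of these data known. The genes named were all members called in the swap component, the 2 highest and 2 lowest mean ratios of each group, called members of groups of 6 or fewer, members with probes called in opposite directions, and up to 2 called genes per direction of other lists. The text adds the remaining members. Alternatives were values as deposited, arrays scaled to one spread, runs of 48 spots centred, whole-number ratios (up to 10, within 0.001 on the log2 scale) removed, values on all 8 arrays, single dye orientations, the mouse as a random block, probes in place of genes, a loess trend removed (span 0.3, degree 1), names without the shift, and each mouse left out.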

Additional observations from a re-analysis of the deposited data

Results flagged for a closer look

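In 3 of 120 member values examined (mean ratio or swap component of a gene over 4 mice), 1 mouse stood apart from the other 3 by more than Dixon's 95% critical value for 4 samples. Chance gives about 1 in 20. The mean ratio of Tuba3b was 1.04 in mouse 1 and 0.81, 0.78 and 0.77 in the others. The swap component of Tubb3 was -0.25 in mouse 4 and -0.63, -0.63 and -0.64 in the others. The swap component of Cfl1 was 0.21 in mouse 1, the only one above 0, and -0.43, -0.41 and -0.52 in the others. The mouse that stood apart was mouse 1 in Tuba3b and Cfl1 and mouse 4 in Tubb3. The cause was not tested.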

How the results depend on the processing

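The 2 arrays of a mouse were paired in both quantities. Mutants could not be paired with single wildtype mice, because all were set against 1 pool. The mouse as a random block had an estimated correlation of -0.167 between a mouse's arrays. That fit held no dye term, and a negative correlation lowers the standard error below that of 8 independent arrays. It called 39.5% of all genes, against 28.8% with the mouse as replicate, so a call gained there alone counts for less. The 31 positive member calls in the mean ratio kept a count within 1.5 times (26 to 35) as deposited, scaled, with runs centred, on complete values, without whole-number ratios, with the random block and in the Cy3 orientation. The background moved too, so a steady count is not a steady excess. It was lowest with runs centred, with 22.7% of all genes and 47.5% of members called in either direction. With the random block it was highest, at 39.5% and 61%. Without 1 mouse they numbered 20 to 27, lowest without mouse 2, with 1 to 2 negative members and 1116 to 1729 genes called. With the mutant in Cy5 alone, 0 genes and 0 members of either sign were called, and Vil1 and Lmna turned to 0.112 and 0.035. Negative members were 1 with arrays scaled or runs centred, 4 as deposited and 6 by probe, where 6256 probes were called.

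In the swap component, the count of 24 negative members stayed within 1.5 times on complete values, without whole-number ratios and by probe. Without whole-number ratios 18.2% of all genes and 50% of members were called, against 9.31% and 40.7% with them. The counts of genes and of negative members called were 286 and 10 as deposited and 396 and 11 with runs centred, and 0 and 0 with arrays scaled, with the loess trend removed and without any 1 mouse. By probe 1473 were called, 1 of them a member above 0. Leaving out a mouse left the members' median between -0.40 and -0.28. The lowest adjusted p in those 4 fits was 0.0808 to 0.135 (limma).

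With names at the same spot number, 10 members were positive and 5 negative in the mean ratio, 25.4% of those tested against 27.4% of all genes, so the share was at the background. In the swap component 460 genes, 1 positive and 3 negative members were called, 5.72% of all genes and 7.02% of the members. Signs then turned in the mean ratio for Arpc1a at -0.38, Tubb5 at -0.36, Tuba3b at -1.40, Actr3 at -2.06, Stmn4 at -0.15, Arpc5 at -0.097, Tubb3 at -0.92, Tbce at -0.065, Tubg1 at 0.88, Pafah1b1 at -0.52, Basp1 at -0.81, Vil1 at 0.32, Epb41l3 at -0.31 and Lmna at 0.98, and in the swap component for Tuba1c at 0.092, Tubb2b at 0.077, Tbca at 0.077, Arpc1a at 0.21, Tubb5 at 0.17, Actr3 at 0.80, Clip1 at 0.093, Map2 at 0.61, Tubg1 at -0.67, Tppp at 0.078, Pafah1b1 at 0.42, Basp1 at 0.16, Cyfip2 at 0.057 and Vil1 at -0.23. Of the limits, the unknown numerator bears on every sign, and no intensities were used here, so weak spots could be recognised only by whole-number ratios. Which of the readings holds was not tested.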
